A study of Homo sapiens with 2 samples.

Results

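RNA of 5 genes of cholesterol synthesis and ester hydrolysis was compared in a human hepatoma line after knockdown of TUC338, a noncoding transcript that carries an ultraconserved element. No sterol, ester or protein was measured here. The genes are SQLE, LSS and TM7SF2, which encode enzymes of sterol synthesis, SREBF2, which encodes the transcription factor that drives the pathway, and NCEH1, which encodes a hydrolase of cholesterol esters. Every probe set that the array annotation gives to the symbol of a member and to no other gene was taken. This gave 5 of 2792 genes and 70 of 42575 probe sets with 1 symbol, namely 12 for SQLE, 24 for LSS, 8 for TM7SF2, 18 for SREBF2 and 8 for NCEH1. Below, all genes means these 2792, and the median gene and all shares are taken over them. They are not every human gene, and of 22 genes of cholesterol synthesis they include 6. NCEH1 is listed under its older symbol AADACL1. No probe set shared between several symbols named a member.

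The knockdown cells were HepG2 that received an LNA against TUC338, an antisense oligonucleotide with locked (bridged) sugars, and the controls were HepG2 that received a control LNA. HepG2 is an established line of hepatocyte-like human liver cancer cells, here grown on collagen. Each condition was measured on 1 array, so no difference below has a replicate or a test, and a p-value cannot be given. The sources used here do not give the LNA sequences, the dose or the time of harvest. The SDs below are over the probe sets of a gene on the same 2 arrays, and do not measure the spread between cultures.

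Cholesterol is built from acetyl-CoA through mevalonate to squalene, which is oxidised by the product of SQLE, closed into the first sterol by the product of LSS and then trimmed in many steps, among them the reduction of a ring double bond by TM7SF2. When membrane sterol is low, the protein made from SREBF2 moves to the Golgi, is cut there and enters the nucleus, where it raises transcription of the synthesis enzymes and of its own gene. Excess cholesterol is esterified and stored in lipid droplets, from which hydrolases such as that of NCEH1, best known from macrophages, release it again. Liver cells both make cholesterol and export it in lipoproteins and bile.

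The knockdown array was brighter as a whole, and its median intensity over 45200 probe sets was 507, against 422 for the control array. The median gene, by its mean over probe sets, was 0.28 higher on the log2 scale, or 1.22-fold. Differences are therefore given relative to the median gene, and those called deposited are not shifted. Probe sets of the same gene differed by a pooled SD of 0.28 in their log2 difference. Of the hepatocyte markers, the table held 5 of 15, ALB, APOB, APOA2, TF and FGG. Their mean log2 intensities ran from 10.53 to 13.02 in the knockdown and from 9.98 to 12.97 in the control, and all 5 means lay within 1.5-fold of the median gene. Summed over the list, the intensity was 30009 in the knockdown against 26067 in the control. No leukocyte marker of 6 was held. Of 7 stromal markers COL1A1 and PDGFRB were, with summed intensities of 524 and 566, knockdown and control, and COL1A1 lay below the median gene at all of its 14 probe sets (-0.90 ± 0.33, SD over probe sets). PDGFRB lay above it at 5 of 7 (0.22 ± 0.38). Both arrays were of the HepG2 line, so these lists do not measure a mixture of tissue cell types. The part of these markers in the results below was not tested. Fewer cells with a marker and less of its RNA per cell cannot be told apart in such extracts. No probe set was annotated to TUC338, so no named probe set gives its own level, and its host gene does not check the knockdown. That gene, PCBP2, averaged -0.89 ± 0.35, and 12 of its 13 probe sets were under the median gene.

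The members did not move as a block. NCEH1 was 1.94-fold higher in the knockdown relative to the median gene, TM7SF2 was slightly higher, SREBF2 lay near the median gene, and SQLE and LSS lay below it at 11 of 12 and 23 of 24 probe sets. Of the 1459 genes with at least 12 probe sets, 10.7% had at most 1 above the median gene. No share was taken at 24 probe sets. Only NCEH1 passed 1.5-fold by its mean over probe sets. Of the 70 probe sets 26 lay above the median gene and 44 below it, against 47.9% and 52.1% of all single-symbol probe sets. Among all genes 2.26% had a mean at least 1.5-fold above the median gene (63 of 2792) and 3.9% a mean at least 1.5-fold below it (109 of 2792). In deposited values these shares were 13% higher and 0.967% lower, and NCEH1 was again the only member past 1.5-fold.

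The start regions of the genes are shown because SREBF2 and its targets are linked through short promoter elements, and so that the member that lay apart can be set beside the others. The windows run from 250 bases before to 50 bases after the annotated start, read 5′ to 3′ on the strand of the gene, and are RefSeq sequence of GRCh38.p14. Of the 5 genes 4 were matched by symbol, and SQLE was not. Capitals mark CACCCCA, the core of the sterol regulatory element known from the LDL receptor gene, the E-box CACGTG and the box CCAAT. Each was searched on both strands, and no marked stretch overlaps another. All CCAAT matches lie on the opposite strand and so read ATTGG. The motifs were chosen with these windows in view. The lines give LSS at chr21:46228725-46229024 on the minus strand, TM7SF2 at chr11:65111622-65111921 on the plus strand, SREBF2 at chr22:41832855-41833154 on the plus strand and NCEH1 at chr3:172711018-172711317 on the minus strand.
LSS: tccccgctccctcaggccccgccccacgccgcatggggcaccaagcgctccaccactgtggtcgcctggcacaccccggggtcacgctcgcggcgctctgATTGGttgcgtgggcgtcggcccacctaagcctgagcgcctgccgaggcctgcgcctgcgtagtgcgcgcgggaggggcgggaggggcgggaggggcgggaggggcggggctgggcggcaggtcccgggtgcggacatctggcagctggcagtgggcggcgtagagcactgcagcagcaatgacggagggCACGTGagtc
TM7SF2: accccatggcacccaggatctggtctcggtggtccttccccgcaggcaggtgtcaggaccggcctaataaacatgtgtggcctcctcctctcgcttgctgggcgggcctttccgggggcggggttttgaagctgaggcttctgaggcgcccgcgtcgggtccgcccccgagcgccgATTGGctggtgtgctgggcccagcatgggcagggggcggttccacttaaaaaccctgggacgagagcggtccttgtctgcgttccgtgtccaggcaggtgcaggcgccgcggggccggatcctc
SREBF2: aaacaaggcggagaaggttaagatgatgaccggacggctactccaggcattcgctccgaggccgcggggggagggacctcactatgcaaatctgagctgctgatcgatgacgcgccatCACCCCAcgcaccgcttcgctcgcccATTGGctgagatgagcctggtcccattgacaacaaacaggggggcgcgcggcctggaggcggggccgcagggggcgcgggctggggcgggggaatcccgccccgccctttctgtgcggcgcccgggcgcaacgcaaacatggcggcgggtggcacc
NCEH1: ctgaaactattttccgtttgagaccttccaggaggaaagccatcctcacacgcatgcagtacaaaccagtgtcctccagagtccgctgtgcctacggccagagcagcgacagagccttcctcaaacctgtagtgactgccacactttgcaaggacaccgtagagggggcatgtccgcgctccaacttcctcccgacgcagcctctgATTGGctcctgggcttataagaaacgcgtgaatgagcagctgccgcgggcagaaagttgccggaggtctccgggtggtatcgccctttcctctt
The sterol element core was found in the SREBF2 window, where its first base lies 132 bases before the start, and in 8.08% of the 35116 promoter windows of the table. ATTGG occurred once in each of the 4 windows, its first base 150 bases before the start in LSS, 74 in TM7SF2, 106 in SREBF2 and 44 in NCEH1, and 34.6% of all windows held CCAAT on either strand. CACGTG occurred in LSS only, from position 41 of the transcript, and in 7.26% of all windows. G and C made up 74.7% of the LSS window, 68% of that of SREBF2, 67.7% of that of TM7SF2 and 57% of that of NCEH1. The G and C content of the other windows was not taken, so these values have no background. A match describes letters in the window and says nothing of binding in these cells, and the oligonucleotide was not compared with these sequences.

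SREBF2 encodes SREBP-2, the main activator of the cholesterol pathway. Over its 18 probe sets the intensity was 124 at the lowest, 722 at the median and 1549 at the highest in the knockdown, against 121, 651 and 1297 in the control. The lowest values were nearly equal, and the median and the highest were higher in the knockdown. Relative to the median gene the mean was -0.06 ± 0.24, with 8 probe sets above and 10 below it. In deposited values it was 0.23 higher, with 14 of 18 probe sets brighter in the knockdown, where 75.2% of all probe sets were. With every gene taken by its brightest probe set the value was 0.058, since the median gene then lay at 0.20 instead of 0.28. Relative to the median gene used elsewhere, that SREBF2 probe set, 3947158, lay at -0.03. The highest SREBF2 probe set, 3947148, had 587 in the knockdown against 352 in the control (0.45). The lowest, 3947197, had 660 in the knockdown against 708 in the control (-0.38). No probe set of SREBF2 reached 1.5-fold in either direction relative to the median gene. In deposited values 3947148 did, at 1.67-fold.

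SQLE encodes squalene epoxidase, the first oxygen-requiring and a rate-limiting step of the sterol part of the pathway. Its 12 probe sets had intensities of 242 at the lowest, 1334 at the median and 3572 at the highest in the knockdown, against 254, 1475 and 4465 in the control. The mean difference was -0.34 ± 0.31 relative to the median gene, or 1.26-fold lower. In deposited values it was -0.05, with 7 of 12 probe sets dimmer in the knockdown, where 24.8% of all probe sets were. Having at most 1 probe set above the median gene, as SQLE had, was seen in 10.7% of the 1459 genes with at least 12 probe sets. LSS had the same count over 24 probe sets, and no share was taken at that number.

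The probe sets of SQLE differed by unequal amounts. Probe set 3114862 gave 596 in the knockdown against 906 in the control (-0.89). Probe set 3114845 gave 1173 in the knockdown against 1644 in the control (-0.77). The brightest, 3114858, gave 3572 in the knockdown against 4465 in the control (-0.61). These 3 were at least 1.5-fold below the median gene, as 8.19% of all single-symbol probe sets were, and all 3 were also dimmer in deposited values. Probe sets 3114850 (1675 in the knockdown against 1409 in the control, -0.03) and 3114847 (949 in the knockdown against 851 in the control, -0.13) lay close to the median gene. The exception above it was 3114854, with 457 in the knockdown against 318 in the control (0.24). The remaining 6 probe sets lay between -0.47 and -0.17. The 6 brighter probe sets averaged -0.32 and the 6 dimmer ones -0.36.

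LSS encodes lanosterol synthase, which folds the epoxide made by SQLE into lanosterol, the first sterol of the pathway. Its 24 probe sets had intensities of 138 at the lowest, 501 at the median and 1273 at the highest in the knockdown, against 141, 546 and 1260 in the control. LSS was the lowest of the 5 members, with a mean of -0.40 ± 0.21 relative to the median gene, or 1.32-fold lower, and the spread over its probe sets was below the pooled SD of all genes. The order of LSS and SQLE turned where only probe sets at or above the median intensity entered (-0.36 for LSS and -0.37 for SQLE). It also turned with the brightest probe set of every gene, centred anew (-0.20 for LSS and -0.52 for SQLE). Relative to the median gene used elsewhere, these 2 probe sets lay at -0.28 and -0.61. In deposited values the mean was -0.12, with 18 of 24 probe sets dimmer in the knockdown. Of 2742 genes with at least 4 probe sets, 271 had a mean as low as that of LSS or lower, and 362 one as low as that of SQLE or lower.

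In LSS 5 probe sets lay at least 1.5-fold below the median gene, as did 8.19% of all single-symbol probe sets. The lowest was 3935276, with 195 in the knockdown against 302 in the control (-0.92). Probe set 3935264 had 444 in the knockdown against 591 in the control (-0.69), and 3935268 had 191 in the knockdown against 251 in the control (-0.68). The other 2 were 3935265, with 723 in the knockdown against 935 in the control (-0.65), and 3935247, with 234 in the knockdown against 293 in the control (-0.61). Of the 5, 3935265 was among the 12 brighter sets of the gene, and the others were among the 12 dimmer ones. The 12 brighter probe sets averaged -0.35 and the 12 dimmer ones -0.46. The brightest set, 3935275, read 1262 in the knockdown against 1260 in the control, nearly equal in deposited values. The only set above the median gene was 3935281, with 1273 in the knockdown against 940 in the control (0.15).

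TM7SF2 encodes a sterol reductase of the endoplasmic reticulum that acts after lanosterol, a reaction it shares with the lamin B receptor LBR, which was not analysed here. It was higher in the knockdown at every probe set. The intensities were 448 at the lowest, 823 at the median and 3025 at the highest in the knockdown, against 338, 582 and 2132 in the control. The mean was 0.21 ± 0.14 relative to the median gene, or 1.15-fold, and 0.49 in deposited values, or 1.40-fold. All 8 probe sets lay above the median gene, which was so for 6.54% of the 2141 genes with at least 8. The size was modest, as 612 of 2742 genes had a mean as high or higher, and no TM7SF2 probe set reached 1.5-fold relative to the median gene. In deposited values 3334907 (1.64-fold) and 3334910 (1.56-fold) did.

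The differences of TM7SF2 ran from 0.05 at probe set 3334903, with 953 in the knockdown against 758 in the control, to 0.43 at 3334907, with 1017 in the knockdown against 621 in the control. At its brightest probe set, 3334905, it read 3025 in the knockdown against 2132 in the control (0.22). The spread over probe sets was the smallest of the 5 members. The 4 brighter sets averaged 0.20 and the 4 dimmer ones 0.21.

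**Figure D1:**
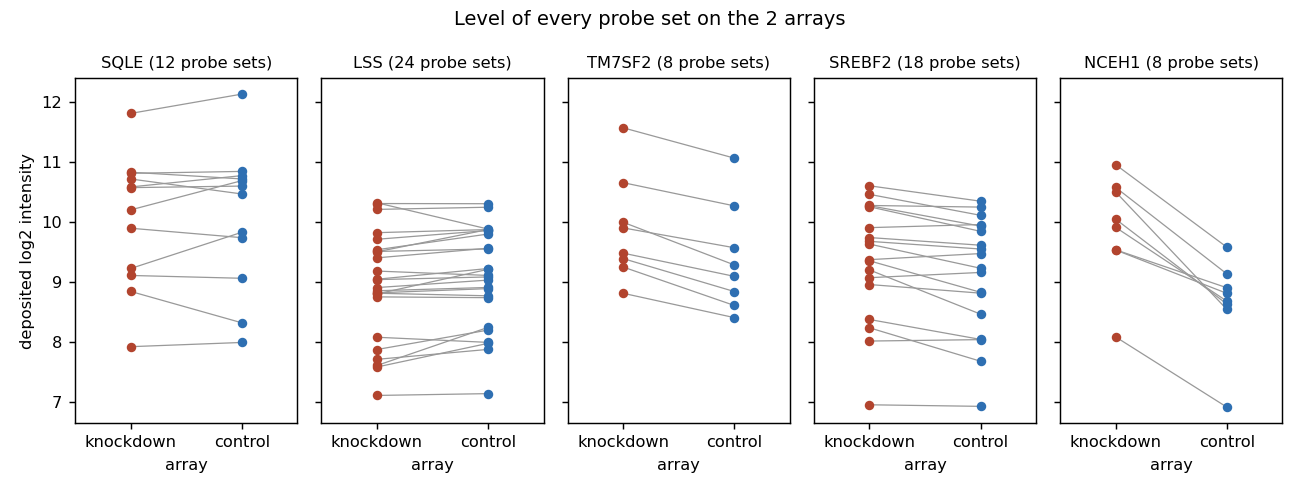
Deposited log2 intensity (vertical axis) of every probe set of the 5 genes, with the knockdown array on the left and the control array on the right of each panel and a line joining the values of the same probe set. All lines of NCEH1 and TM7SF2 are higher at the knockdown end, while the lines of SQLE and LSS run both ways, with 7 of 12 and 18 of 24 lower at the knockdown end.

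NCEH1 encodes neutral cholesterol ester hydrolase, an enzyme of the endoplasmic reticulum related to arylacetamide deacetylase. It stood apart from the synthesis genes. Its 8 probe sets had intensities of 271 at the lowest, 1005 at the median and 1976 at the highest in the knockdown, against 120, 428 and 763 in the control. The mean was 0.96 ± 0.42 relative to the median gene, or 1.94-fold, and 1.24 in deposited values, or 2.37-fold. A mean as high or higher was seen in 10 of the 2742 genes with at least 4 probe sets, NCEH1 among them. Over the alternative settings its value ran from 0.66, with the values read as log2, to 1.24, without centring.

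Every probe set of NCEH1 was higher in the knockdown, but by different amounts. Probe set 2705751 had 1443 in the knockdown against 372 in the control (1.67). Probe set 2705759 had 1520 in the knockdown against 560 in the control (1.16), and 2705760 had 1054 in the knockdown against 395 in the control (1.13). The brightest probe set, 2705755, read 1976 in the knockdown against 763 in the control (1.09). These 4 lay more than 2-fold above the median gene.

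The rest of NCEH1 differed less. Probe set 2705753 had 959 in the knockdown against 409 in the control (0.95). The dimmest, 2705750, had 271 in the knockdown against 120 in the control (0.89). The smallest differences were at 2705752, with 738 in the knockdown against 447 in the control (0.44), and at 2705787, with 740 in the knockdown against 477 in the control (0.35). In all, 6 of the 8 probe sets were at least 1.5-fold above the median gene, as 6.15% of all single-symbol probe sets were. The 4 brighter sets averaged 1.26 and the 4 dimmer ones 0.65. The SD of 0.42 was reached or passed by 4.52% of genes with at least 4 probe sets. The probe sets could not be placed on exons, since their positions were not used here.

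**Figure D2:**
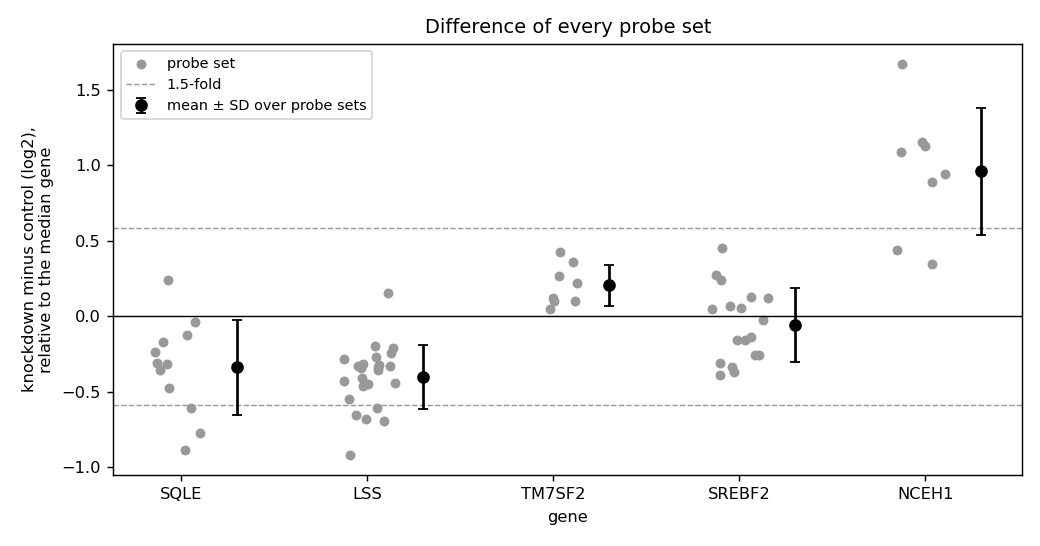
Knockdown minus control on the log2 scale, relative to the median gene (vertical axis), for every probe set of the 5 genes (grey points), with the mean and SD over probe sets in black and dashed lines at 1.5-fold. NCEH1 has 6 of 8 points above the upper line, SQLE has 3 of 12 and LSS 5 of 24 below the lower line, and TM7SF2 and SREBF2 have none beyond either.

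Set against each other, the probe sets of SQLE and LSS shared a range, with 11 of 12 and 23 of 24 inside that of the other gene. The difference of SQLE was below that of every TM7SF2 probe set at 11 of 12 probe sets, and that of LSS at 23 of 24. All 12 probe sets of SQLE and all 24 of LSS lay below the lowest of NCEH1, and 7 of 8 of NCEH1 lay above the highest of TM7SF2. Against SREBF2, 6 of 8 of NCEH1 lay above its highest and 2 inside its range. How often the probe sets of other genes separate in this way was not counted, so these counts have no share over all genes beside them. The mean of SQLE was 0.07 above that of LSS, which is less than the SD over probe sets of either gene. LSS and TM7SF2, which act on the same chain of intermediates, differed by 0.61 in their means, on opposite sides of the median gene. In deposited values the means of SREBF2, TM7SF2 and NCEH1 lay above 0 as did those of 83% of all genes, and those of SQLE and LSS below it, as did those of 17%.

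**Figure D3:**
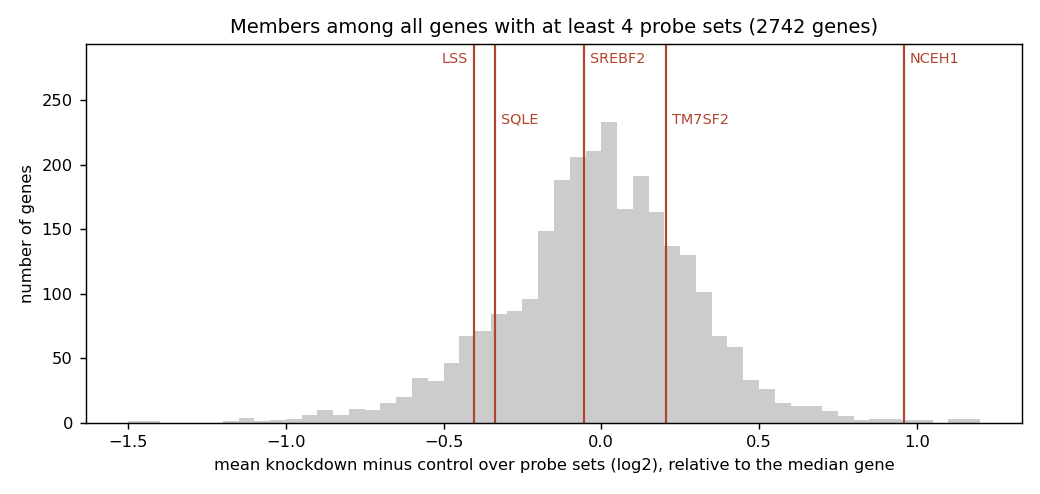
Number of genes (vertical axis) by mean knockdown minus control over probe sets, on the log2 scale and relative to the median gene (horizontal axis), for the 2742 genes with at least 4 probe sets, with red lines at the 5 members. NCEH1 lies at 0.96 in the upper tail, and SQLE (-0.34) and LSS (-0.40) lie left of the centre within the body of the distribution.

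The other genes of the pathway came from lists that, like the members, were chosen with earlier results of these data known. Of 22 genes of cholesterol synthesis the table held 6, the 3 enzymes above with MVD, ACAT2 and FDPS. Of these 6, 5 lay below the median gene, where 50% of all genes lie, and none was past 1.5-fold. In deposited values 3 of the 6 lay above 0. The list median was -0.25 against 0 for all genes, and 0.03 in deposited values, against 0.28 for all genes. The 3 that are no members all lay below the median gene, with a median of -0.17. In deposited values that median was 0.11. MVD, which makes isopentenyl diphosphate, had an intensity of 391 in the knockdown against 440 in the control, each a geometric mean over 7 probe sets. It lay below the median gene at all 7 (-0.45 ± 0.37), and 9.01% of genes with at least 4 probe sets did so at every one. ACAT2, the cytosolic acetyl-CoA acetyltransferase at the head of the pathway, had 762 in the knockdown against 704 in the control (-0.17 ± 0.35, with 8 of 11 probe sets below). FDPS, which makes farnesyl diphosphate, had 988 in the knockdown against 876 in the control (-0.11 ± 0.31, with 8 of 12 below). In deposited values ACAT2 and FDPS were higher in the knockdown by 0.11 and 0.17, and MVD was -0.17.

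Of 14 genes that sense sterols and process SREBP the table held 7, of which 3 lay above and 4 below the median gene. ERLIN1, a membrane protein of the endoplasmic reticulum that takes part in sterol-driven degradation of HMG-CoA reductase and in keeping SREBP inactive, was the only gene of the list past 1.5-fold. It had 676 in the knockdown against 307 in the control and was above the median gene at all 11 probe sets (0.86 ± 0.24, or 1.81-fold). Of genes with at least 4 probe sets, 7.33% had every one above it. INSIG2, which anchors the SREBP escort protein in the endoplasmic reticulum, had 1055 in the knockdown against 720 in the control (0.27 ± 0.42), with 5 of 8 probe sets above the median gene. MBTPS1, the protease that makes the first cut in SREBP, had 1383 in the knockdown against 1278 in the control (-0.17 ± 0.21). SREBF1, which encodes the related factor of fatty acid synthesis, had 387 in the knockdown against 356 in the control (-0.16 ± 0.30). MBTPS2 (-0.07 ± 0.29) and the ubiquitin ligase MARCHF6 (0.02 ± 0.21) lay near the median gene.

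Among 10 genes of ester formation and hydrolysis, 3 were held and all 3 lay above the median gene, with a list median of 0.13. The other 2 are carboxylesterases. CES1, an abundant liver carboxylesterase, had 2797 in the knockdown against 2099 in the control (0.13 ± 0.16), and CES2 had 741 in the knockdown against 599 in the control (0.02 ± 0.27). NCEH1 was thus the only member of that list past 1.5-fold. Of 10 lipoprotein uptake genes, LRP1 and DAB2 were held and both lay more than 1.5-fold below the median gene. LRP1, a large endocytic receptor of the LDL receptor family, had 620 in the knockdown against 772 in the control and 97 of its 98 probe sets were under the median gene (-0.60 ± 0.17). DAB2, an adaptor that takes LDL receptor family members into coated pits, had 415 in the knockdown against 672 in the control and lay below it at all 17 (-0.98 ± 0.28). Both were also lower in deposited values, where DAB2 stayed past 1.5-fold (-0.69) and LRP1 did not (-0.32).

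Of 20 genes of intracellular sterol transport 7 were held, with a median of -0.03, 3 above and 4 below the median gene. NPC2, which hands cholesterol out of the lysosome, had 922 in the knockdown against 1163 in the control and lay below the median gene at all 5 probe sets (-0.62 ± 0.20). VAPA, which tethers sterol carriers to the endoplasmic reticulum, had 722 in the knockdown against 900 in the control and lay below it at all 13 (-0.60 ± 0.24). In deposited values neither was past 1.5-fold, with -0.34 for NPC2 and -0.32 for VAPA. NPC1, the membrane partner of NPC2, had 985 in the knockdown against 823 in the control (-0.03 ± 0.30). LAMP2 had a mean of -0.15 ± 0.38, and SCP2 (0.05 ± 0.33) and OSBPL11 (0.03 ± 0.35) lay near the median gene. Of 9 genes of sterol efflux and its LXR receptors 3 were held. ABCA1, which loads cholesterol onto apolipoprotein A-I, had 834 in the knockdown against 854 in the control and 54 of its 58 probe sets were under the median gene (-0.32 ± 0.22). The sterol-sensing receptors NR1H3 (0.23 ± 0.38) and NR1H2 (0.06 ± 0.33) had positive means.

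**Figure D4:**
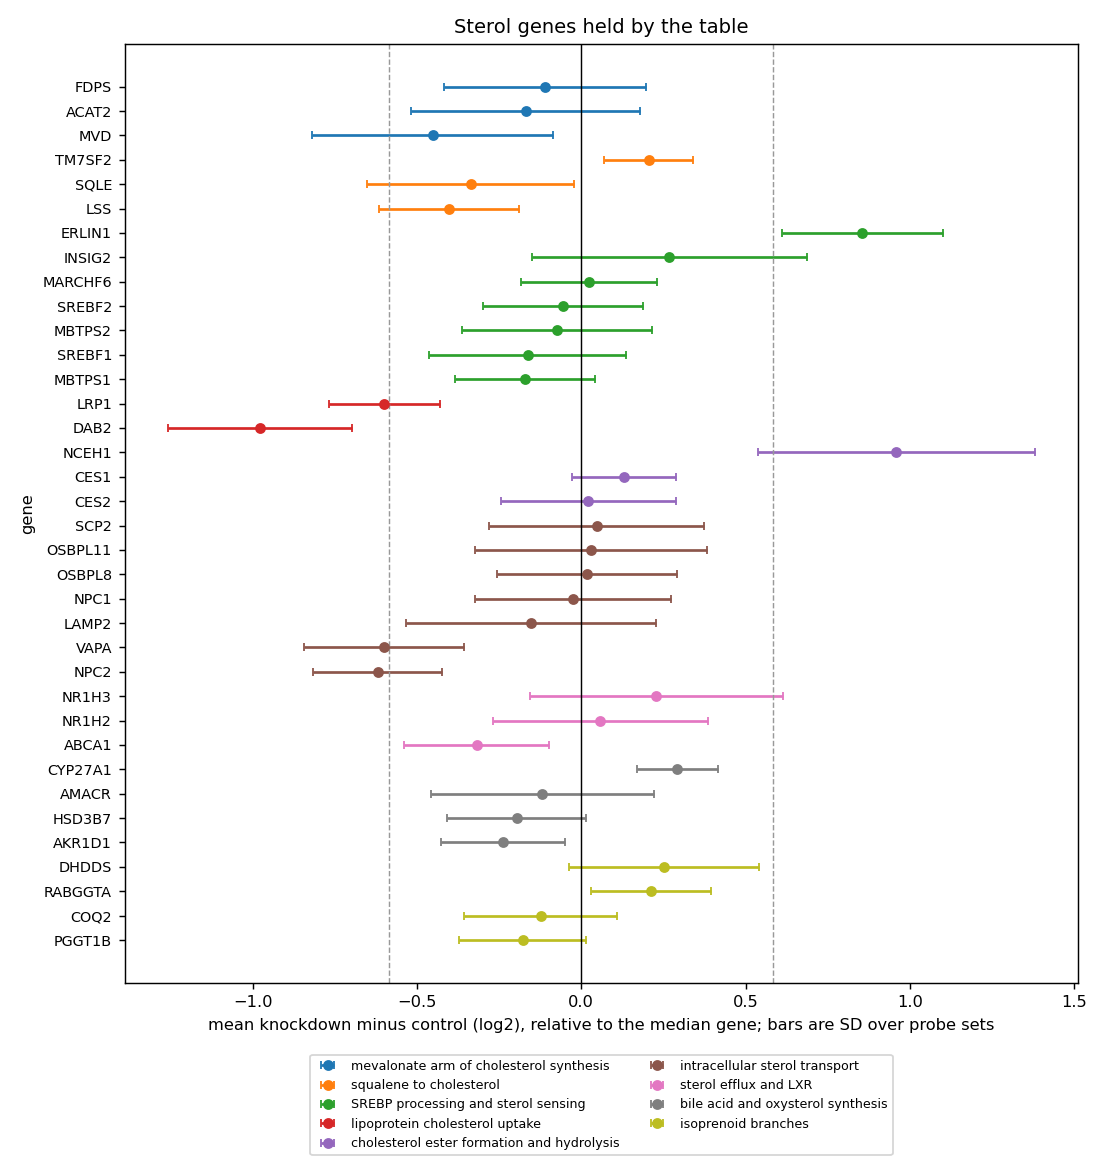
Mean knockdown minus control over probe sets, on the log2 scale and relative to the median gene (horizontal axis), for each sterol gene the table held, coloured by list, with bars for the SD over probe sets and dashed lines at 1.5-fold. NCEH1 and ERLIN1 lie beyond the upper line, DAB2, LRP1, NPC2 and VAPA beyond the lower line (of these DAB2 alone also in deposited values), and the remaining genes between them.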

How the data were processed

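Total RNA was amplified by a whole-transcript kit and labelled with biotin, per the labels' protocols, and hybridised to 1 array per condition. The authors deposited 1 value per probe set and array, and the sources used here do not give software, normalization, build or scale. The deposited values were read as natural log intensities, because their exponentials fell on multiples of 0.5 plus a fixed residue far more often than powers of 2 did (fullest residue bin 1154 against a mean of 82.7 in the knockdown, and 117 against 90.4 as log2). They were divided by the natural log of 2. Of 2795 symbols, 331 were updated through the RefSeq gene table. A gene was the mean over its single-symbol probe sets, with no filter on low values, and was centred on the median gene. Counts used 1.5-fold. Up to 6 genes of a list were named, those with the largest absolute mean difference, and all that were held of synthesis and ester hydrolysis. Members and lists were chosen with earlier results of these data known. Scripts (Python 3.11.15, pandas 2.3.3, numpy 2.4.6) were tested on simulated data. The number of arrays limits the precision, and 9 alternatives were run.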

Additional observations from a re-analysis of the deposited data

How the results depend on the processing

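With 1 array per condition no replicate could be left out. No paired analysis was possible because each group holds 1 array and no test was made. The count of members past 1.5-fold was 1 higher and 0 lower under all 9 alternatives. The signs of SQLE, LSS, TM7SF2 and NCEH1 held under all 9, with ranges of -0.52 to -0.05, -0.40 to -0.12, 0.14 to 0.49 and 0.66 to 1.24. Reading the values as log2 only rescales the differences, so it could not change a sign. It set the low ends for TM7SF2 and NCEH1, and the uncentred values set their high ends. Without centring on the median gene, LSS moved to -0.12, TM7SF2 to 0.49 and SREBF2 to 0.23, the cholesterol synthesis genes above 0 went to 3 from 1, and the median of that list turned to 0.0304, since the centring is a shift of 0.28. SREBF2 also turned, to 0.058, with the brightest probe set. In that setting the median gene lay at 0.20, and on the zero used elsewhere the same probe set was -0.03. The share of all genes at least 1.5-fold higher and lower was 2.26% and 3.9%, against 13% and 0.967% without centring, 5.19% and 6.95% with the brightest probe set and 0.573% and 1.11% with the values read as log2. Of the 70 member probe sets 53 were at or above the median intensity of all single-symbol probe sets, 458 as a mean over both arrays, and since no background signal is given, detection of the dimmer ones could not be judged.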

Other observations

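Some genes of sterol use outside synthesis and storage were also held. Of 15 genes of bile acid and oxysterol synthesis the table held 4, of which CYP27A1, the mitochondrial sterol 27-hydroxylase, lay above the median gene at all 10 probe sets, with 1033 in the knockdown and 693 in the control (0.29 ± 0.12, log2, SD over probe sets). AKR1D1, the steroid 5-beta-reductase, had 195 in the knockdown and 189 in the control (-0.24 ± 0.19), HSD3B7 had a mean of -0.20 ± 0.21 and AMACR one of -0.12 ± 0.34. Of 11 genes of the isoprenoid branches 4 were held. DHDDS, which makes the dolichol precursor, averaged 0.25 ± 0.29, with 8 of 9 probe sets above the median gene, and the geranylgeranyl transferase subunit RABGGTA 0.21 ± 0.18, with 14 of 16. PGGT1B (-0.18 ± 0.19) and COQ2 (-0.12 ± 0.23) lay below it at 6 of 7 each. In deposited values all 8 of these means were above 0, as were those of 83% of all genes.

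Likeness over the 2 arrays was measured as the distance between gene means in the plane of the knockdown and control log2 intensities, among genes with at least 4 probe sets. This depends on how strongly each probe binds as well as on the transcript. Nearest to NCEH1 was ZFAND1, at 0.20, with CD2AP and BLTP3A at 0.22 each. The genes nearest to SQLE were SEMA3B, MACROH2A1 and IL32, at up to 0.048. Those nearest to LSS were HIF3A, ENTPD4 and TCF20, at up to 0.058. TM7SF2 had SLC20A2, PTPA and ITPRID2 at up to 0.033, and SREBF2 had TMEM41A, NOP9 and PGPEP1 at up to 0.028.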
